A study of Homo sapiens with 10 samples.

Results

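The sites described here are STAT3 sites of non-transformed breast epithelial cells that had no counterpart in the STAT3 list of the transformed cells. They were chosen by position: a STAT3 peak of non-transformed cells on chromosomes 1 to 22 or X was taken as lost when no STAT3 summit of transformed cells lay within 300 bp of its own summit. Of 42810 STAT3 peaks, 12444 were lost by this rule and 30366 were kept, so the lost share was 29.1%. The members were selected on the STAT3 lists, and their STAT3 values are therefore given as a description. The lists of the other 4 proteins took no part in the choice.

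All libraries came from MCF10A-ER-Src cells, a non-tumorigenic human mammary epithelial line in which the v-Src oncogene is fused to the hormone-binding part of the estrogen receptor and is switched on by 4-hydroxy-tamoxifen. Chromatin immunoprecipitation and sequencing (ChIP-seq) was done for FOS, JUN, JUNB, NFKB1 and STAT3. Each protein had 1 library from non-transformed cells, labelled EtOH, and 1 from cells transformed with 1 µM of the drug for 12 h, labelled TAM. Both states carry the v-Src fusion and differ in the drug. The names stored inside the STAT3 lists give 36 h for the non-transformed and 12 h for the transformed culture, so the time in culture and the drug cannot be told apart.

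STAT3 is a transcription factor that is activated by tyrosine phosphorylation downstream of cytokine receptors and of Src, and binds DNA as a dimer. AP-1 is a family of dimers built from FOS and JUN proteins. It opens and marks many enhancers of epithelial cells, and STAT3 is often found beside it. NFKB1 encodes p105 and its product p50, a DNA-binding subunit of NF-κB. The STAT3 antibody carries the catalogue number 9131 of Cell Signaling, which is known as an antibody to the phosphorylated protein, so the lists may follow phosphorylated STAT3 more closely than total STAT3.

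There is 1 library per protein and state, so no difference between states has a replicate check and no test was possible. The 95% intervals given with shares are Wilson intervals and cover the counting of sites only, not variation between cultures. The 2 STAT3 libraries also differ as libraries. The non-transformed one kept 10929003 of 20488488 reads after repeated positions were removed, a loss of 46.7%, and its fragments were extended to 150 bp. The transformed one kept 8967267 of 11637618 reads, a loss of 22.9%, with an extension of 119 bp. The transformed STAT3 list is nevertheless the longer of the pair, with 80265 peaks. Whether these differences contributed to the lost sites was not tested. The lists use the genome build hg19, for which no sequence or annotation was used here, so sites are given by position and not by gene.

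Lost sites were mostly weak STAT3 peaks. Their median pileup, the number of extended reads stacked over the summit, was 8 reads (quartiles 7 to 9), against 12 (9 to 18) at kept sites and 10 (8 to 15) over all STAT3 sites. Per 1000000 reads the median was 0.732 at lost and 1.10 at kept sites. The median fold enrichment, the pileup divided by the background estimated around it, was 5.54 (4.90 to 6.22) at lost sites and 7.89 (6.13 to 11.6) at kept sites. A pileup of at most 9 reads was found at 9546 lost sites, or 76.7%, against 29.7% of kept sites. The peaks were also shorter, with a median of 165 bp against 237 bp. A small number of members were strong: the highest pileup was 181 reads and the highest fold enrichment 99.6.

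The share of STAT3 sites that was lost was lower in every step from the weakest to the strongest decile. In the weakest decile of −log10 q, where the median pileup was 6 reads, 2799 of 4281 sites were lost (65.4%, 63.9 to 66.8%). It was 32.7% in the fifth decile and 7.29% in the eighth. In the strongest decile, with a median pileup of 36 reads, 64 sites were lost (1.49%, 1.17 to 1.90%). Counted the other way, 50.1% of the lost sites lay in the weakest quartile of STAT3 peaks, 36.4% in the second, 11.1% in the third and 2.43%, or 302 sites, in the strongest. Scaled to the reads of the transformed library, which had 0.821 times the depth, 87.7% of lost sites had a pileup of 5 reads or more, the 5th percentile of the transformed list, and 608 (4.89%) reached its median of 11 reads. Pileup also grows with the fragment extension, and scaled by reads and extension together, a factor of 0.651, these shares were 64.5% and 2.22% (276 sites).

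**Figure D1:**
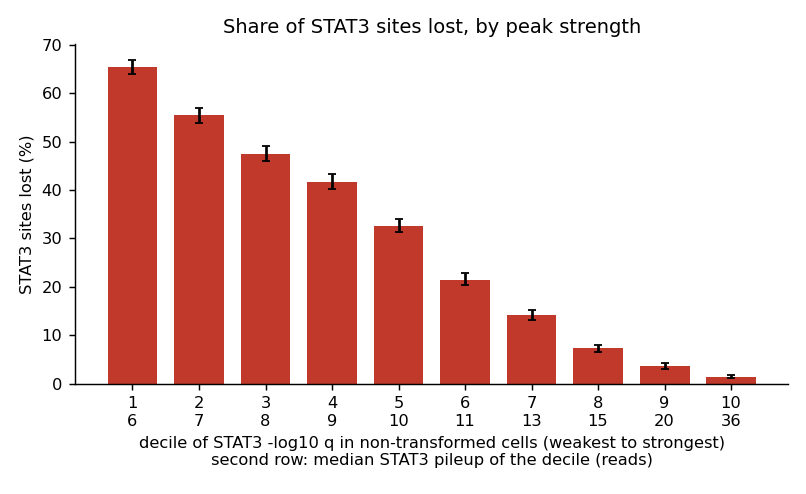
Share of STAT3 sites of non-transformed cells that were lost (y axis, percent) in each decile of the STAT3 list ordered by −log10 q (x axis, weakest at the left, with the median pileup of each decile in reads below). Bars are shares and whiskers Wilson 95% intervals; the share falls from 65.4% in the weakest decile to 1.49% in the strongest.

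Most lost sites were far from any STAT3 summit of transformed cells. The median distance to the nearest one was 9134 bp (quartiles 2118 to 26737 bp). Over 10000 bp of separation was found at 5985 sites (48.1%), over 1000 and up to 10000 bp at 4432 (35.6%), and up to 1000 bp at 2027 (16.3%). Strong members were different in this respect. Within 1000 bp of a transformed summit lay 14.4% of the lost sites of the weakest quartile, 15.5% of the second, 20.1% of the third and 49.7% (44.1 to 55.3%) of the strongest. The intervals of 557 lost sites (4.48%) overlapped a STAT3 peak of transformed cells even though the summits were too far apart, and of the strongest quartile 140 of 302 (46.4%) did so. At 1150 of the 2027 sites within 1000 bp (56.7%), the neighbouring transformed summit lay within 300 bp of another STAT3 summit of non-transformed cells. Among the strong members, "lost" thus often refers to a summit in a region that still held a STAT3 peak.

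At the limit of the rule itself, 329 kept sites had a transformed summit at over 250 and up to 300 bp and 328 lost sites had one at over 300 and up to 350 bp. Both sets had a median pileup of 9 reads and a median fold enrichment of 5.60. FOS, JUN or JUNB lay beside 84.8% of the former and 73.8% of the latter in non-transformed cells, and beside 91.5% and 71.6% in transformed cells. The last kept sites were chr16:56966944-56967110 and chr8:98566113-98566262, each with a transformed summit at 300 bp, and chr16:65692191-65693048, with one at 299 bp. The first lost ones were chr18:43373255-43373714, chr6:6812008-6812224 and chr10:3825177-3825712, each with one 1 bp beyond the limit, and all 3 of their intervals overlapped a transformed STAT3 peak.

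About 1 lost site in 2 had an AP-1 protein beside it before transformation, far fewer than kept sites. A FOS, JUN or JUNB summit of non-transformed cells lay within 300 bp of 6493 lost sites (52.2%, 51.3 to 53.1%), against 91.9% (91.5 to 92.2%) of kept sites and 80.3% of all STAT3 sites. FOS was the most frequent, at 41.3% of lost sites (73.4% of all STAT3 sites), followed by JUN at 34.8% (66% of all) and JUNB at 21.0% (52% of all). NFKB1 was rare, at 755 lost sites or 6.07% (18.9% of all). The intervals of lost and kept sites did not overlap for any of the 4 proteins.

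In transformed cells the AP-1 share of the same positions was almost the same number. By the rule, no STAT3 summit of transformed cells lay within 300 bp of them. The AP-1 share was 52.3% (51.4 to 53.2%) at lost sites, 95.4% at kept sites and 82.9% over all STAT3 sites. The members of the family did not move alike. FOS stood at 37.7% of lost sites in transformed cells (75% of all STAT3 sites), lower than before, whereas JUN stood at 44.3% (77.4% of all) and JUNB at 25.0% (63.4% of all), both higher than before. At kept sites all 3 were more frequent in transformed cells, FOS included, which went from 86.5 to 90.2%. NFKB1 went from 6.07 to 22.6% at lost sites and from 24.1 to 78.2% at kept sites, and stood at 62.1% of all STAT3 sites. For these 4 proteins the transformed library was the deeper one: NFKB1 had 9674390 reads against 4837474 in non-transformed cells, JUNB 15750765 against 9178601, JUN 18454386 against 15852999 and FOS 22082403 against 18619521. The part of depth in the higher shares was not tested.

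**Figure D2:**
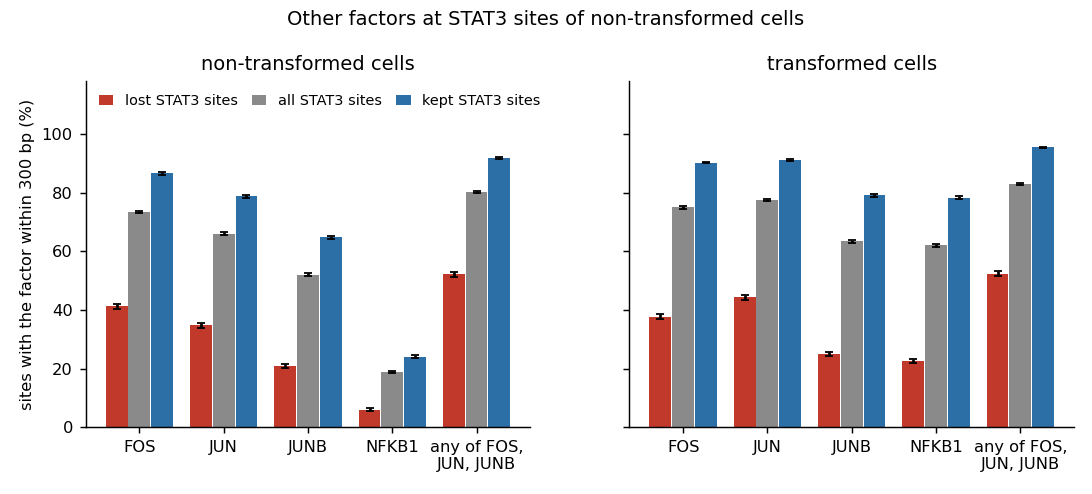
Share of STAT3 sites of non-transformed cells with each protein within 300 bp (y axis, percent) in the lists of non-transformed cells (left) and transformed cells (right), for lost, all and kept STAT3 sites. Bars are shares and whiskers Wilson 95% intervals; the lost sites are lowest for every protein, and their share with any AP-1 protein is 52.2% on the left and 52.3% on the right.

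The even AP-1 total hid some turnover. Of the lost sites, 5574 (44.8%) had an AP-1 summit in both states, 919 (7.39%) only in non-transformed cells, 936 (7.52%) only in transformed cells, and 5015 (40.3%) in neither. At kept sites the same classes held 90.6%, 1.27%, 4.81% and 3.33%. NFKB1 of transformed cells was found at 43.5% of lost sites with AP-1 in both states, at 16.6% of those with AP-1 in transformed cells only, at 11.3% of those with AP-1 in non-transformed cells only and at 2.53% of those without AP-1. Kept sites with AP-1 in both states had NFKB1 in 83.2% of cases. The median STAT3 pileup before transformation was 9 reads in lost sites with AP-1 in both states and 8 reads in each of the other 3 classes.

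The combinations of proteins were also simpler at lost sites. In non-transformed cells, 47.3% of lost sites had none of the other 4 proteins, 20.2% had 1, 16.6% had 2, 13.6% had 3 and 2.21% had all 4. Over all STAT3 sites these shares were 19.3, 13.9, 17.9, 35.3 and 13.7%, and at kept sites 7.77, 11.3, 18.4, 44.2 and 18.4%. The share with 2 proteins thus differed little between the sets. The most frequent combination at lost sites was FOS with JUN and JUNB but without NFKB1, at 1452 sites (11.7%), followed by FOS alone at 1311 (10.5%), FOS with JUN at 1192 (9.58%) and JUN alone at 1024 (8.23%). The last 3 made up 7.05, 11.9 and 3.47% of kept sites. At kept sites the full AP-1 trio without NFKB1 was found at 40.1% and the trio with NFKB1 at 18.4%. In transformed cells all 4 proteins stood at 1333 lost sites (10.7%) and at 20270 kept sites (66.8%). JUN alone, without any of the other 3, was found at 1088 lost sites (8.74%) in transformed cells, and FOS alone at 460 (3.70%), against 2.10 and 1.73% of kept sites.

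Read from the side of the other proteins, the lost share was lower with each further protein present in non-transformed cells. It was 71.4% (70.4 to 72.4%) of STAT3 sites with none of the 4, 42.4% with 1, 27.1% with 2, 11.2% with 3 and 4.69% (4.18 to 5.26%) with all 4. Within the weakest quartile of STAT3 peaks it was 87.8% with none and 9.50% with all 4. In the second quartile it was 70.4% with none and 10.6% with all 4, and in the third 27.8 and 6.02%. In the strongest quartile the spread was small, with 5.16% (3.49 to 7.56%) lost among sites with none and 1.76% (1.35 to 2.29%) among sites with all 4, and the highest value, 7.55%, was that of sites with 1.

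A large group of members stood by itself: 4874 lost sites (39.2%, 38.3 to 40.0%) had none of FOS, JUN, JUNB and NFKB1 within 300 bp in either state. At kept sites this was 845 (2.78%, 2.60 to 2.97%), and over all STAT3 sites 13.4%. These sites were weak STAT3 peaks as a rule, with a median pileup of 8 reads. They made up 52.0% of lost sites in the weakest STAT3 quartile, 32.3% in the second, 11.3% in the third and 5.30% in the strongest, where 16 remained. At kept sites the share ran from 3.78% in the weakest quartile to 1.73% in the strongest. The share was 46.6% among lost sites over 10000 bp from a transformed STAT3 summit, 35.6% at over 1000 and up to 10000 bp and 24.9% at up to 1000 bp.

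Lost sites were weaker STAT3 peaks than kept sites, so the shares were also compared within quartiles of STAT3 −log10 q. In the weakest quartile, AP-1 was present in non-transformed cells at 38.7% of lost and 87.7% of kept sites. It was at 59.1 and 89.4% in the second, 81.9 and 92.3% in the third, and 90.7% (86.9 to 93.5%) and 95.3% (94.8 to 95.7%) in the strongest. The mean difference over the 4 quartiles was −23.6 percentage points, lost minus kept. For the lists of transformed cells it was −30.1 points, and the strongest quartile then still differed by −14.6 points, with 82.5 against 97.1%. For FOS the mean difference went from −28.2 points in non-transformed to −42.1 points in transformed cells. JUN changed less, from −29.2 to −32.7 points, and JUNB went from −33.2 to −42.7 points. NFKB1 went from −7.89 to −43.6 points: in the strongest quartile it stood at 32.5% of lost and 37.3% of kept sites before transformation, with overlapping intervals, and at 52.6% against 87.2% after it. The NFKB1 list of non-transformed cells held 13252 peaks and that of transformed cells 73822. A short list leaves little room for a difference in points, and the part of list length in this change was not tested.

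**Figure D3:**
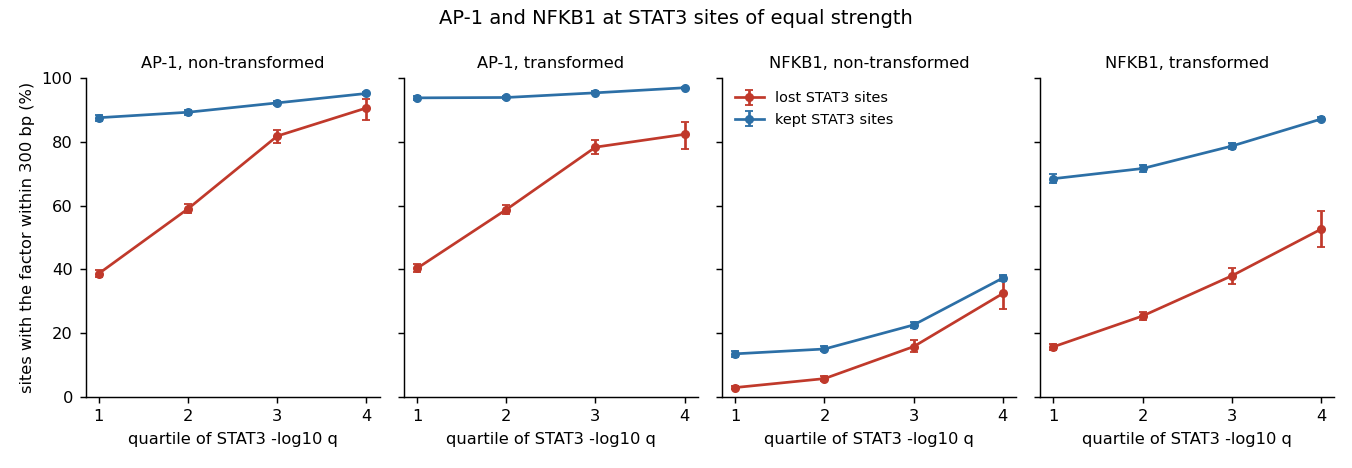
Share of lost and kept STAT3 sites with an AP-1 protein or NFKB1 within 300 bp (y axis, percent) in quartiles of the STAT3 −log10 q of non-transformed cells (x axis, weakest at 1), for the lists of both states. Points are shares and whiskers Wilson 95% intervals; lost sites lie below kept sites in every panel, and for AP-1 in non-transformed cells the difference is −48.9 points in the weakest quartile and −4.55 points in the strongest.

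Where another protein had been present at a lost site, it was itself more often gone after transformation than at a kept site. Of the 5135 lost sites with FOS in non-transformed cells, 1402 had no FOS summit within 300 bp in transformed cells (27.3%, 26.1 to 28.5%), against 3.69% (3.47 to 3.92%) at kept sites. JUN was gone from 668 of 4332 lost sites (15.4%) and from 2.54% of kept sites. JUNB was gone from 619 of 2609 (23.7%) and from 4.05%. NFKB1, the DNA-binding NF-κB subunit, was gone from 239 of 755 (31.7%, 28.4 to 35.1%) and from 3.94%. Over all peaks of a protein in non-transformed cells, wherever they lay, 17% of FOS, 21% of JUN, 25.6% of JUNB and 10.7% of NFKB1 peaks were gone. Measured from each protein's own summit, as for all its peaks, FOS was gone from 26.4% of lost sites that had held it. JUN was gone from 14.3%, JUNB from 22.2% (20.7 to 23.9%) and NFKB1 from 29.3%. On this measure FOS and NFKB1 at lost sites lay above the share over all their peaks, and JUN and JUNB lay below it.

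Weak peaks of these proteins were gone more often than strong ones, so the shares were also read within quartiles of each protein's own −log10 q, with distance taken from its own summit. For FOS they were 52.4, 35.3, 14.3 and 2.89% at lost sites, from the weakest to the strongest quartile, and 18.8, 8.56, 2.39 and 0.872% at kept sites. All FOS peaks gave 43.6, 18.8, 4.53 and 0.905%, below the lost sites in each quartile. For NFKB1 they were 39.0, 37.1, 23.1 and 5.93% at lost sites and 7.75, 5.61, 2.69 and 0.461% at kept sites, and all NFKB1 peaks gave 23.0, 13.6, 5.58 and 0.785%. JUN peaks at lost sites gave 31.6, 17.6, 8.28 and 2.83%, against 48.0, 25.7, 8.64 and 1.71% for all JUN peaks. JUNB peaks at lost sites gave 48.4, 31.1, 9.16 and 2.54%, against 61.7, 32.0, 7.95 and 0.882% for all JUNB peaks. In the weakest quartile, JUN and JUNB at lost sites were thus gone less often than all such peaks, while FOS and NFKB1 were gone more often. This split did not hold in the strongest quartile, where all 4 proteins were gone more often at lost sites. There JUN had 2.83% (1.94 to 4.11%) against 1.71% (1.54 to 1.90%), and JUNB 2.54% (1.59 to 4.04%) against 0.882% (0.758 to 1.03%). With 1 library per state, none of these differences could be tested between cultures.

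**Figure D4:**
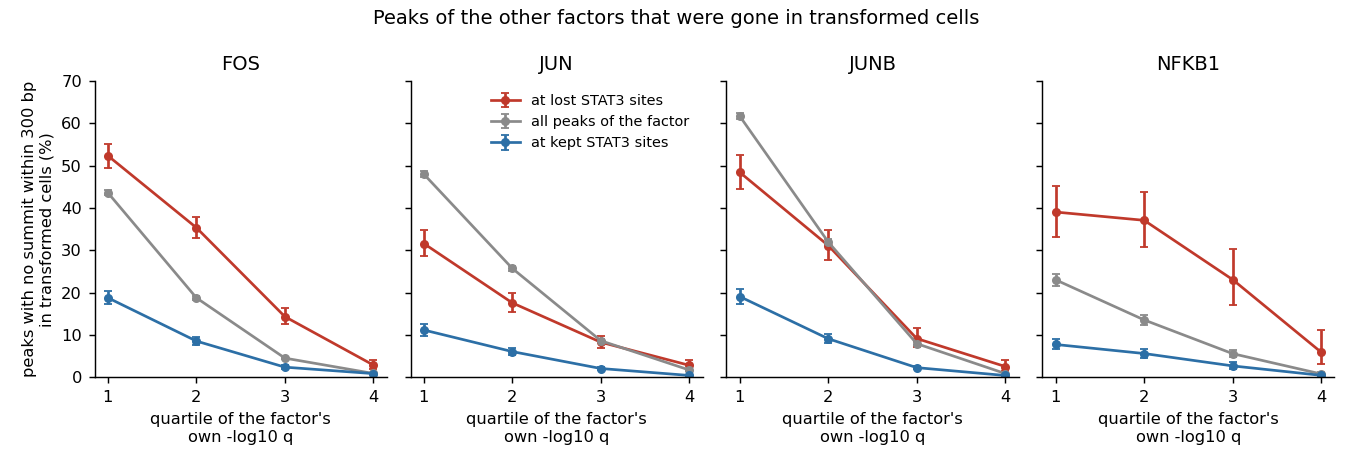
Share of FOS, JUN, JUNB and NFKB1 peaks of non-transformed cells with no summit of the same protein within 300 bp in transformed cells (y axis, percent), in quartiles of the protein's own −log10 q (x axis, weakest at 1). Points are shares and whiskers Wilson 95% intervals for peaks at lost STAT3 sites, at kept STAT3 sites and over all peaks of the protein. Kept sites are lowest throughout. The weakest quartile at lost sites lies above all peaks for FOS (52.4 against 43.6%) and below them for JUN (31.6 against 48.0%). In the strongest quartile lost sites lie above all peaks for all 4 proteins, for JUN 2.83 against 1.71%.

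Where a protein had a peak in both states, its height in transformed relative to non-transformed cells was lower at lost than at kept sites. At 3733 lost sites with FOS in both lists, the median log2 ratio of pileup per 1000000 reads, transformed over non-transformed, was −0.44 (quartiles −0.83 to −0.04), and 76.5% of these sites were below 0. At kept sites it was −0.20 (−0.54 to 0.24) with 62.8% below 0, and over all FOS peaks shared by the 2 lists −0.08 with 54.2% below 0. JUN was higher in transformed cells in all sets, with a median of 0.16 (−0.22 to 0.56) at 3664 lost sites, 0.47 at kept sites and 0.37 over all shared JUN peaks. JUNB had −0.31 (−0.73 to 0.11) at 1990 lost sites, 0.06 at kept sites and −0.04 over all shared JUNB peaks. NFKB1 had −0.49 at 516 lost sites, 0.10 at kept sites and 0.04 over all shared NFKB1 peaks, with 72.9, 41.7 and 45.5% below 0. The lowest pileup was 4 reads in both NFKB1 lists, and 4 and 5 reads in the JUNB lists of non-transformed and transformed cells. The transformed libraries were the deeper ones, so lower heights per 1000000 reads could be listed there. The part of this limit in the ratios was not tested.

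The sign for JUNB and NFKB1 depends on how peak height is expressed. With fold enrichment over the local background in place of pileup per 1000000 reads, FOS had a median of −0.30 at lost and −0.07 at kept sites, and JUN had 0.29 and 0.58. JUNB had 0.11 and 0.46, and NFKB1 had 0.24 and 0.77, with 37.8% of lost and 12.5% of kept sites below 0. At lost sites the median was thus below 0 for FOS and above 0 for JUN on both scales, while for JUNB and NFKB1 its sign differed between the scales. On both scales all 4 proteins had a lower median at lost than at kept sites. Within quartiles of STAT3 strength the median of pileup per 1000000 reads was lower at lost sites for FOS, JUN and NFKB1 in every quartile. For FOS it was −0.35 against −0.09 in the weakest and −0.49 against −0.23 in the strongest. JUNB followed in the 3 weaker quartiles, and in the strongest it was 0.12 at 119 lost sites against 0.10 at kept sites. The FOS ratio also differed by the strength of the FOS peak. From the weakest to the strongest quartile of FOS −log10 q, its median at lost sites was 0.12, −0.35, −0.55 and −0.72. At kept sites it was 0.49, 0.22, 0.09 and −0.38, and over all shared FOS peaks 0.41, 0.13, −0.08 and −0.40. Among FOS peaks called in both states, the weakest quartile was thus not lower in transformed cells, at lost sites either. These ratios leave out FOS peaks that were gone. Measured from the FOS summit, 634 of 1211 peaks of that quartile at lost sites (52.4%) were gone.

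**Figure D5:**
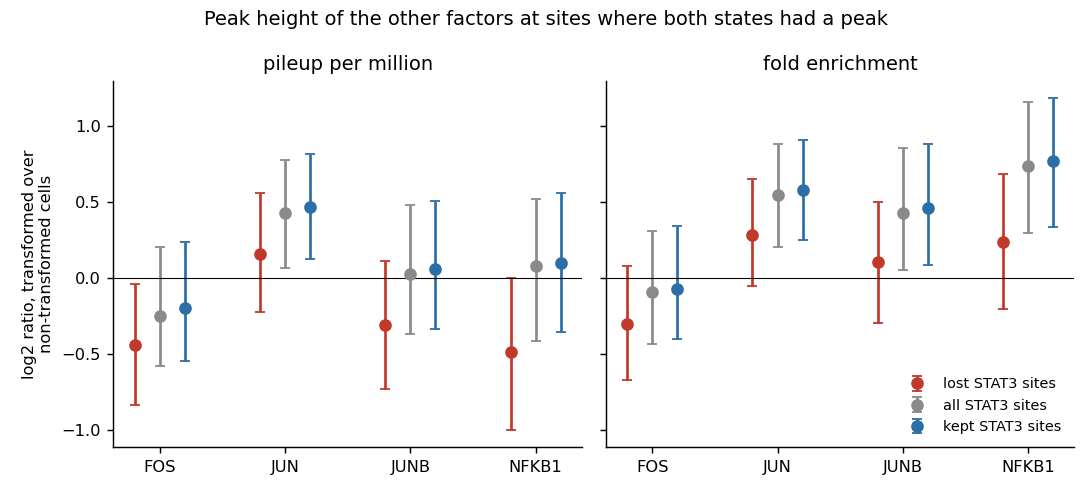
Log2 ratio of peak height in transformed over non-transformed cells (y axis) for each protein at STAT3 sites where it had a summit within 300 bp in both states, as pileup per 1000000 reads (left) and as fold enrichment (right). Points are medians and whiskers the quartiles over lost, all and kept STAT3 sites; the lost sites have the lowest median for all 4 proteins on both scales, for FOS −0.44 on the left and −0.30 on the right.

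The proteins also sat less closely on lost STAT3 summits. In non-transformed cells the median distance from the STAT3 summit to FOS was 48 bp (interval of the median 46 to 50 bp) at lost sites and 37 bp (36 to 37 bp) at kept sites. For JUN it was 46 and 35 bp, for JUNB 50 and 37 bp, and for NFKB1 50 and 40 bp. A FOS summit within 50 bp was found at 52.1% of lost sites with FOS and 63.0% of kept sites with FOS. STAT3 peaks were weaker at lost sites, and the part of that in these distances was not tested.

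Lost sites close to a STAT3 summit of transformed cells and those far from one differed in strength and in company. The median STAT3 pileup was 8 reads in all 3 distance classes, but 21.1% of the nearest class lay in the 2 stronger STAT3 quartiles, against 13.7% of the middle and 10.7% of the farthest class. AP-1 was present in non-transformed cells at 61.3% of lost sites with a transformed STAT3 summit at up to 1000 bp, at 55.3% of those at over 1000 and up to 10000 bp and at 46.8% of those farther away. In transformed cells these shares were 62.9, 55.6 and 46.3%. NFKB1 in transformed cells was at 37.6, 22.8 and 17.4%. Within the weakest STAT3 quartile the AP-1 shares of non-transformed cells were 47.4% (44.2 to 50.7%), 42.6 and 33.4% (31.7 to 35.1%), from the nearest to the farthest class. In the strongest they were 92.0% (86.5 to 95.4%), 91.9 and 87.2% (78.0 to 92.9%), with overlapping intervals. The order JUN above FOS in transformed cells held in each class, with 49.1 against 46.2% in the nearest and 40.1 against 33.0% in the farthest.

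The lost sites that were strong enough to stand at or above the median of the transformed list after scaling by reads were a separate case. Of these 608 sites, 181 (29.8%) overlapped a transformed STAT3 peak, 220 (36.2%) had a transformed summit within 1000 bp and 199 (32.7%) had none within 10000 bp. AP-1 stood at 88.2% (85.3 to 90.5%) of them in non-transformed cells and at 80.6% (77.3 to 83.5%) in transformed cells, so that in this group the AP-1 share was lower after transformation. NFKB1 went from 25.8 to 44.6%. Over all STAT3 sites AP-1 went from 80.3 to 82.9% and NFKB1 from 18.9 to 62.1%. At kept sites of the strongest STAT3 quartile, which is not the same strength class, AP-1 went from 95.3 to 97.1%. NFKB1 went from 37.3 to 87.2% there, a larger rise than at these lost sites.

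The 10 lost sites with the highest STAT3 −log10 q were looked at one by one. In 9 of them the interval overlapped a STAT3 peak of transformed cells whose summit lay 346 to 1370 bp away. The strongest was chr5:140940187-140940835, with a pileup of 181 reads and a fold enrichment of 99.6. The overlapping transformed peak had a fold enrichment of 74.2 and its summit 1271 bp away. FOS there went from a fold enrichment of 13.4 to 12.1, JUN from 8.32 to 10.7 and JUNB from 5.40 to 5.21, and NFKB1 was listed only in transformed cells, at 13.4. All 3 AP-1 proteins therefore remained at this position at similar height.

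The second, chr6:58776456-58779284, was the widest of the members at 2829 bp, and its fold enrichment was high for every antibody. It was 86.5 for STAT3 in non-transformed cells, 81.0 and 45.5 for FOS in non-transformed and transformed cells, 80.2 and 73.6 for JUN, 78.3 and 69.0 for JUNB, and 77.3 and 51.7 for NFKB1. The 5 values of non-transformed cells differ little between the 5 proteins. The peaks were called without a control library, and the part of signal that does not depend on the antibody was not tested.

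The third, chr3:12475531-12475959, was the only one of the 10 without a STAT3 peak nearby in transformed cells. It had a pileup of 134 reads and a fold enrichment of 83.3 in the STAT3 list of non-transformed cells. The nearest transformed summit lay 11008 bp away and had a fold enrichment of 5.02. None of FOS, JUN, JUNB and NFKB1 had a summit within 300 bp in either state. It was the strongest of the 4874 sites without company, followed by chr5:154923202-154923438 with a STAT3 fold enrichment of 20.5 and chr11:86693965-86694609 with 14.9. The last overlapped a transformed STAT3 peak of 14.9 whose summit lay 353 bp away.

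The remaining 7 lay in regions where STAT3 was still called. At chr6:89744314-89745988 the STAT3 fold enrichment was 62.3 and that of the transformed peak, 370 bp away, 75.2. FOS there went from 54.2 to 47.1, JUN from 22.7 to 37.2 and JUNB from 24.0 to 38.8. At chr8:53030190-53030624 and chr14:34965753-34966564 the STAT3 values were 41.5 and 36.1, and those of the transformed peaks nearby were higher, 63.1 and 78.9. At both sites FOS was lower in transformed cells (44.1 to 35.7 and 56.0 to 34.9), while JUN (13.0 to 17.5 and 13.7 to 19.6) and JUNB (15.1 to 29.4 and 18.3 to 26.2) were higher.

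Of the other 4, chr5:59041032-59041777 had a STAT3 fold enrichment of 54.0 beside a transformed peak of 57.0. JUN there went from 7.81 to 23.3 and JUNB from 4.59 to 18.7, and NFKB1 was listed in non-transformed cells only, at 10.7. At chr1:8318990-8320009, STAT3 stood at 46.7 beside a transformed peak of 20.6. FOS and NFKB1 were listed in non-transformed cells only, at 14.2 and 6.34, and JUNB went from 5.94 to 11.4. At chr11:355847-356552, STAT3 stood at 46.7 beside a transformed peak of 47.3, and no AP-1 protein was listed before transformation. At chr2:43359014-43359622, STAT3 stood at 41.8 beside a transformed peak of 35.3, and FOS went from 4.35 to 13.0.

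All 4 other proteins were present in both states at 185 of the 12444 lost sites. The same count over kept or all STAT3 sites was not taken. In non-transformed cells all 4 stood at 2.21% of lost, 18.4% of kept and 13.7% of all STAT3 sites. In transformed cells these shares were 10.7, 66.8 and 50.5%. Of the 185, the 3 with the strongest STAT3 peaks were the wide site on chromosome 6, the site on chromosome 14 and chr1:230240482-230241018. The last had a STAT3 fold enrichment of 28.3 and a transformed peak of 73.4 whose summit lay 1002 bp away. FOS stood at 45.2 and 35.7 in non-transformed and transformed cells, JUN at 15.2 and 23.2, JUNB at 30.5 and 34.5, and NFKB1 at 15.1 and 27.6.

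Few lost sites went from the whole AP-1 trio to none. Of 1727 lost sites with FOS, JUN and JUNB in non-transformed cells, 24 (1.39%, 0.936 to 2.06%) had none of the 3 in transformed cells, against 12 of 17762 kept sites (0.0676%) and 0.185% of all STAT3 sites with the trio. NFKB1 was absent as well at 19 of the 24, and at 2 kept sites. The strongest of the 19 were chr3:24176835-24177087, chr1:145113867-145114135 and chr7:107565465-107565723. At the first, STAT3 had a pileup of 19 reads and a fold enrichment of 11.7, with 6.45 for FOS, 5.18 for JUN and 4.48 for JUNB. At the second, STAT3 had 8.50, FOS 4.08, JUN 5.64, JUNB 5.43 and NFKB1 5.27, and a strong transformed STAT3 peak of 51.0 lay 752 bp away. At the third, STAT3 had 8.23, with 3.56 for FOS, 4.72 for JUN and 4.04 for JUNB. The other proteins' peaks at these 3 sites were all low, at 6.45 or less.

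Lost sites were found on every chromosome. The lost share of STAT3 sites ran from 22.5% on chromosome 20 (20.1 to 25.2%) to 34.6% on chromosome 13 (31.9 to 37.3%). Chromosomes 4 (34.0%), X (33.1%) and 5 (32.2%) followed at the upper end, and chromosomes 22 (23.4%) and 17 (23.5%) at the lower end. The company of lost sites differed between the ends of this order: the share with AP-1 in non-transformed cells was 60.5% on chromosome 20 and 67.5% on 22, against 44.8% on 13 and 47.9% on 4. The share of FOS peaks gone was also highest on chromosome 13, at 19.4%, and was 15.3% on chromosomes 20 and 22. The chromosomes were not compared at equal STAT3 strength.

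The next STAT3 site was lost more often after a lost than after a kept site, although most neighbours of lost sites were kept. After a lost site, the next STAT3 site along the chromosome was lost in 34.2% of cases when it lay within 1000 bp, against 24.1% after a kept site. At over 1000 and up to 10000 bp these shares were 32.4 and 20.1%, and beyond 10000 bp 36.5 and 29.3%, beside a lost share of 29.1% over all sites. Among the 794 windows of 1 Mb with at least 20 STAT3 sites, the median lost share was 25% (quartiles 18.2 to 31.8%), and it passed 50% in 14 windows. The 3 windows with the highest share, picked after their values were seen, were chr6:57000000-57999999 with 24 of 27 sites lost (88.9%), chr1:164000000-164999999 with 22 of 33 (66.7%) and chr1:243000000-243999999 with 26 of 40 (65.0%). Neither neighbours nor windows were compared at equal STAT3 strength, and the part of strength in their lost shares was not tested.

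These windows differed in what the other proteins did. In the window on chromosome 6, which lies near the centromere, 29 of 52 FOS peaks (55.8%), 38 of 54 JUN peaks (70.4%) and 16 of 34 JUNB peaks (47.1%) were gone as well. In the first window on chromosome 1, 8 of 43 FOS peaks (18.6%), 5 of 22 JUN peaks (22.7%) and 11 of 32 JUNB peaks (34.4%) were gone, and 22.7% of its lost sites had AP-1 before transformation. In the second, 8 of 37 FOS peaks (21.6%), 10 of 35 JUN peaks (28.6%) and 21 of 44 JUNB peaks (47.7%) were gone, and 19.2% of its lost sites had AP-1. Over all peaks the shares gone were 17% for FOS, 21% for JUN and 25.6% for JUNB. The lost share of STAT3 was also set against the share gone over the windows that held at least 20 peaks of the other protein, as a description over windows that share the same libraries. Pearson's r was 0.31 for FOS over 794 windows (Spearman's rho 0.23), 0.26 for JUN over 793 (0.20) and 0.38 for JUNB over 783 (0.33). NFKB1, with 23 such windows, had 0.55 (0.36). Without the 2 windows farthest from the median, r was 0.27, 0.21, 0.36 and 0.52 in the same order.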

How the data were processed

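The 10 peak lists were made by the authors with MACS version 2.0.10.20131216 and no control, 1 list per library, from reads of 36 bp with 1 read kept per position, a local background over 1 Mb and a q-value cutoff of 0.05. The submitters' processing notes name Bowtie, MACS2 and hg19. The deposited pileup is a signal, the number of extended reads at the summit, and was not scaled by the authors. The deposited significance is −log10 of the p-value and q-value, and the deposited fold enrichment is a ratio to local background. From 4837474 to 22082403 reads per library remained.

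Distances were taken between summits on the same chromosome, and another protein was present within 300 bp. Pileup was given per 1000000 filtered reads. Quartiles were of −log10 q. The members and lists were chosen with earlier results of these data known. Sites were named by a rule: the 10 lost sites with the highest STAT3 −log10 q, the 3 highest with all 4 proteins in both states, with FOS, JUN and JUNB before and none of the 4 after, and with none in either, and the 3 on each side of 300 bp. Alternatives changed the distances, thresholds, scaling and overlap rule. Motifs, promoters and genes were not analysed, since no sequence of hg19 was used here. Python 3.11.15 with numpy 2.4.6, pandas 2.3.3, scipy 1.17.1 and matplotlib 3.10.9 was used. On 3 simulated lists of 20000 evenly and widely spaced sites, the code recovered the lost share built in. The check did not cover closely spaced sites or the shares with other proteins.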

Additional observations from a re-analysis of the deposited data

Results flagged for a closer look

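The STAT3 list of non-transformed cells also holds 62 peaks outside chromosomes 1 to 22 and X, which no comparison used. Of these, 27 had no transformed STAT3 summit within 300 bp (43.5%, Wilson 95% interval 31.9 to 55.9%). The share was 29.1% of STAT3 sites on chromosomes 1 to 22 and X. Strength was not compared between the sets. The 62 peaks were looked at because they are a signal in data outside the comparisons.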

How the results depend on the processing

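Of 90 values recomputed under alternatives, 31 stayed within the interval of the reported value and 59 moved outside it. Shares cannot change sign. Only the median log2 ratio of FOS, with 15 alternatives, and the lost minus kept AP-1 difference, with 13, could do so, and 0 did. The values depended most on STAT3 strength. With STAT3 peaks at or above the median −log10 q, the lost share was 9.94%, the AP-1 shares of lost sites in non-transformed and transformed cells 80.7 and 77.7%, the NFKB1 share in transformed cells 38.5%, the median log2 ratio of FOS −0.57 and the lost minus kept AP-1 difference −8.47 points. With the 5000 strongest they were 1.76%, 89.8%, 88.6%, 63.6%, −0.34 and −6.15 points, and FOS was gone from 21.6%. With the scaled pileup at or above the transformed median they were 4.55%, 88.2%, 80.6%, 44.6%, −0.57 and −5.52 points, with FOS gone from 30.7%. With 150 bp for a lost site they were 32.8%, 56.4%, 57.0%, 28.3%, −0.38 and −20.6 points, with FOS gone from 23.0%, and with 1000 bp 24.3%, 50.4%, 50.3%, 19.7%, −0.49 and −22.3 points. With other proteins within 150 bp the AP-1 shares were 46.9 and 46.9%, NFKB1 19.3% and FOS gone 29.4%; by interval overlap AP-1 50.2 and 50.7% and FOS gone 24.5%; with other lists at −log10 q of 5 or more AP-1 43.9 and 44.3%, NFKB1 14.1%, FOS gone 29.3% and the difference −26.9 points. Leaving out peaks near a stronger one gave a difference of −22.2 points. Chosen after seeing the data, scaling by reads and extension together, with pileup at or above the transformed median, gave a lost share of 2.93%, AP-1 90.6 and 81.9%, NFKB1 53.3%, FOS gone 32.7%, a FOS ratio of −0.49 and a difference of −5.17 points. Also chosen then, leaving out lost sites near a transformed STAT3 peak gave AP-1 50.4 and 50.2%, NFKB1 19.6% and FOS −0.49, and the FOS ratio was −0.36 divided by fragment length and −0.30 as fold enrichment. Calling a site kept by interval overlap and leaving out pileups over 10 times the median moved no value outside its interval.

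No paired analysis was possible because each protein and state has 1 library. With 1 library, none can be omitted in turn. The motif and promoter alternatives were not run. With a median pileup of 8 reads at lost sites, absence from the transformed list does not show absence of binding.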
